A study of Mus musculus with 24 samples.

Results

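The genes described here are 10 antioxidant and NRF2 target genes, *Hmox1*, *Nqo1*, *Gclc*, *Gclm*, *Txnrd1*, *Sod1*, *Sod2*, *Gpx1*, *Prdx1* and *G6pdx*, followed across liver samples of wild-type and PPARα-null mice. A gene was included through its current or older symbol in the array annotation. Of the 10 genes, 9 had at least 1 probe set, giving 11 of the 12422 probe sets with values. *Nqo1* and *Prdx1* had a pair each, and *G6pdx* was not analysed here. The livers came from 24 male mice, aged 9 to 12 weeks, and were hybridized to Affymetrix U74Av2 arrays, 1 mouse per array. There were 8 groups of 3 mice, numbered below as the labels number them. Wild-type mice were controls (mice 1 to 3), received heat shock (HS, mice 4 to 6), the PPARα agonist WY-14,643 (WY, mice 7 to 9), or both (WY+HS, mice 10 to 12). PPARα-null mice, which lack a functional *Ppara* gene in all cells, fell into the same groups (mice 13 to 15, 16 to 18, 19 to 21 and 22 to 24). All mice were on a mixed SV129 and C57BL/6 background. The WY diet held 500 ppm and was fed for 1 week, HS lasted 40 minutes at 42 °C according to the methods (the labels give a slightly warmer chamber), and livers were taken 4 hours later. Because whole liver was used, less RNA per cell and fewer cells of a type cannot be told apart.

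NRF2 (encoded by *Nfe2l2*) is a transcription factor that KEAP1 holds in the cytosol and marks for degradation through a CUL3 ubiquitin ligase. When reactive cysteines of KEAP1 are modified by oxidants or electrophiles, NRF2 enters the nucleus, pairs with small MAF proteins and binds antioxidant response elements (AREs) near genes of glutathione synthesis, thioredoxin reduction, quinone reduction and NADPH supply. The liver also relies on superoxide dismutases, glutathione peroxidases and peroxiredoxins, which remove superoxide and peroxides and are only partly under NRF2 control. Peroxisomal fatty acid oxidation, which PPARα agonists increase in rodents, is itself a source of hydrogen peroxide.

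The core ARE, TGACNNNGC, was searched on both strands of the promoter windows of the measured genes, to show where a consensus NRF2 site stands next to genes whose values follow. RefSeq promoter windows of 300 bases (250 before and 50 after the start) on GRCm38.p6 were at hand for 7 of the measured genes. Of these genes 4 held the element, in 4 of their 9 windows in all. It was found in 12.4% of all 32851 windows of the same length. In each of the 4 the match lay on the strand opposite to the gene, so that the capitals below show its reverse complement. Positions are counted from the start site, with negative values before it.
*Gclm* (chr3:122245307-122245606, + strand, match from -134 to -126): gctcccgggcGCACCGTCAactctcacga
*Txnrd1* (chr10:82858956-82859255, + strand, match from -92 to -84, 1 of its 3 windows): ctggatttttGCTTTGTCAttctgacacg
*Sod1* (chr16:90220512-90220811, + strand, match from -56 to -48): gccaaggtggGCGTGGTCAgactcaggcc
*Prdx1* (chr4:116685349-116685648, + strand, match from -133 to -125): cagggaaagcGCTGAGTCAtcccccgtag
The middle 3 bases differ among the 4 genes. A heat shock element, GAANNTTC or TTCNNGAA, was present in the window of *Sod1* and in 15.1% of all windows, and an exact direct repeat for PPARα with its partner, AGGTCANAGGTCA, was in none of these windows and in 0.0396% of all. A match in these letters is a description of the sequence and not a measured binding site.

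Over 14 comparisons, 26 differences of these probe sets passed the test. In WY-treated wild-type mice *Gpx1*, *Sod2* and 1 probe set of *Nqo1* were higher than in controls. Only *Gpx1* passed under every scaling of the arrays. *Sod2* passed under 8 of the 18 alternatives described below. This *Nqo1* probe set, with all controls at the floor, passed under 5 of the 18. *Sod1* and *Prdx1* were also higher in WY-treated wild-type mice, but among the scalings the difference passed only after quantile normalization. Over the 18 alternatives *Sod1* and *Prdx1* 97758_at passed under 15, and *Prdx1* 97055_s_at under 13. After WY+HS in wild-type mice *Sod1*, *Prdx1* and the same *Nqo1* probe set were higher than in controls. In heat-shocked PPARα-null mice *Prdx1* was lower than in the null controls. None of the differences of these 2 comparisons passed without scaling. In null mice given WY before HS, *Gclc*, *Txnrd1* and *Prdx1* were higher and *Gpx1* lower than in null mice given HS alone. Of these only *Gpx1* passed without scaling. In the null HS group mice 16 and 17 had high sums of skeletal muscle markers (828 and 766), described below. Their part in these differences was not tested. The remaining 9 differences were interactions, all of *Sod1* or *Prdx1*. *Hmox1*, *Gclm* and the brighter *Nqo1* probe set passed the test in no comparison. Tests were made with limma over all 12422 probe sets, and a change passed at a Benjamini-Hochberg adjusted p under 0.05. p-values measure the spread between mice, except where all values of a group were raised to the floor for low intensities and show none. Levels are normalized intensities, which can be compared between mice for 1 probe set but not between probe sets.

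Several values of the series as a whole bear on these results. The deposited arrays had medians of 15.2 to 40.5 and the sources used here do not say how the deposited values were scaled. The main values were quantile normalized. The differences were also computed after scaling to a common median, to a common trimmed mean and without scaling, and a passing difference that failed under any of these is named with its result. Without scaling, the median log2 difference of the probe sets above the floor moved from 0 to 0.35 for WY and for HS in wild-type mice and to -0.57 for WY+HS against WY. The 4 hepatocyte markers (*Alb*, *Ttr*, *Apoa1* and *Cps1*) summed to between 22134 and 24510 in every group. In wild-type mice the sum was 22134 to 22759 after WY, below the 22981 to 24281 of the controls. For WY there *Ttr* (-1.43, adjusted p = 3.81e-05) and *Cps1* (-0.34, adjusted p = 6.78e-05) passed downward, beside 5.19% of all probe sets. Both also passed downward for WY+HS (-1.49 and -0.26), beside 5.38% of all. The 4 skeletal muscle markers (*Ckm*, *Acta1*, *Mylpf* and *Tnnc2*) summed to 937 in control mouse 1. They summed to 828 and 766 in HS-treated null mice 16 and 17, against 113 to 226 in the other 21 mice. In mice 1, 16 and 17 most of the sum was *Acta1* (662, 592 and 478), and *Tnnc2* read 144, 181 and 168. *Ckm* read 56.5 in mouse 1 and was at the floor in mice 16 and 17, and *Mylpf* read 74.3, 39.2 and 103. Below, high muscle markers means a high sum of the 4. *Ppara* read 298 to 357 in wild-type and 152 to 185 in null control mice.

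Superoxide is converted to hydrogen peroxide by SOD1 in the cytosol and SOD2 in mitochondria. *Sod1* read 2823, 3331 and 3113 in wild-type controls and 3350.2, 2876 and 3021 after HS. It read 4055, 4034 and 4405 after WY and 4172, 3727 and 4201 after WY+HS. The 6 WY-fed wild-type mice all lay above the 6 without WY. In null mice the values stayed between 3076 and 3594 in all 4 groups, which overlapped.

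The *Sod1* difference in wild-type mice was 0.43 ± 0.07 (log2, SE, n = 3 per group, adjusted p = 0.000296) for WY and 0.39 ± 0.07 (adjusted p = 0.000819) for WY+HS after quantile normalization. With a common median the WY difference was 0.01 (adjusted p = 1) and with a common trimmed mean 0.07 (adjusted p = 0.855), and without scaling it was 0.54 (adjusted p = 0.0851). Whether the *Sod1* difference with WY passed depended on the scaling of the arrays. The WY+HS difference also passed with a trimmed mean (0.27, adjusted p = 0.0255), but not with a common median (0.30, adjusted p = 0.221) or without scaling (0.08, adjusted p = 1). The interaction of WY with genotype, which asks whether the null mice differed from the wild-type mice in their response, was -0.47 (adjusted p = 0.0058) after quantile normalization and passed under no other scaling.

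*Sod2* read 215, 257 and 244 in wild-type controls and 345, 308 and 354 after WY. All WY mice exceeded all controls, and the difference was 0.49 ± 0.14 (adjusted p = 0.0332), a 1.41-fold rise. After WY+HS the 3 values, 306, 255 and 386, overlapped those of the controls, and the difference of 0.39 did not pass (adjusted p = 0.106). The rise with WY passed with a common trimmed mean (0.49, adjusted p = 0.0391) but not with a common median (0.42, adjusted p = 0.178) or without scaling (0.96, adjusted p = 0.0575). It did not pass without mouse 1 (0.42, adjusted p = 0.136), without mouse 3 (0.51, adjusted p = 0.0718), without mouse 7 (0.47, adjusted p = 0.0969) or without mouse 9 (0.45, adjusted p = 0.113), and passed under 8 of 18 alternatives in all. In null controls *Sod2* read 323, 283 and 315, above all 3 wild-type controls, with a difference between the strains of 0.36 that did not pass (adjusted p = 0.339). The null mice given WY read 272, 247 and 276, and the interaction of WY with genotype was -0.70 (adjusted p = 0.0548).

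GPX1 is a selenium enzyme, abundant in liver, that reduces hydrogen peroxide with glutathione. *Gpx1* read 111, 58.3 and 80.4 in wild-type controls and 117, 184 and 161 after WY. Control mouse 1, one of the mice with high muscle markers, was the highest control and lay just below the lowest WY mouse. The difference was 0.91 ± 0.21 (95% interval 0.48 to 1.35, adjusted p = 0.00721), or 1.88-fold. It passed under all 4 scalings, with differences of 0.88 to 1.42, and was 1.14 (adjusted p = 0.00264) without the 3 mice with high muscle markers. Of 18 alternatives it failed only in the fit of the compared arrays alone (0.91, adjusted p = 0.214), and the smallest difference, without mouse 2, was 0.68 (adjusted p = 0.0457). After WY+HS the values of 124, 85.4 and 104 overlapped both the controls and the WY group.

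No interaction of *Gpx1* with genotype passed. It was 0.29 for HS (adjusted p = 0.911), -0.81 for WY (adjusted p = 0.151) and -0.74 for WY+HS (adjusted p = 0.197). Wild-type HS mice read 87.0, 96.7 and 119, and null WY mice 117, 146 and 129. The null controls read 125, 129 and 111, and the null HS group 199.9, 198 and 159.9, the highest of all 8 groups. This difference of 0.61 ± 0.21 did not pass (adjusted p = 0.0942), although the groups did not overlap. After WY+HS the values were 90.8, 96.8 and 93.0, all below the HS group, a difference of -0.98 ± 0.21 (adjusted p = 0.00527) that passed under all 4 scalings. Without the 3 mice with high muscle markers, when mouse 18 alone stands for the HS group, it was -0.77 (adjusted p = 0.189). The 5 probe sets most like that of *Gpx1* over the 24 mice were those of *Col5a1*, *Ryr3*, *Trim3*, *Efna3* and *Ntmt1* (Pearson r of 0.83 to 0.88), none of which encodes an antioxidant enzyme. How well this probe set measures the *Gpx1* transcript was not tested.

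**Figure D1:**
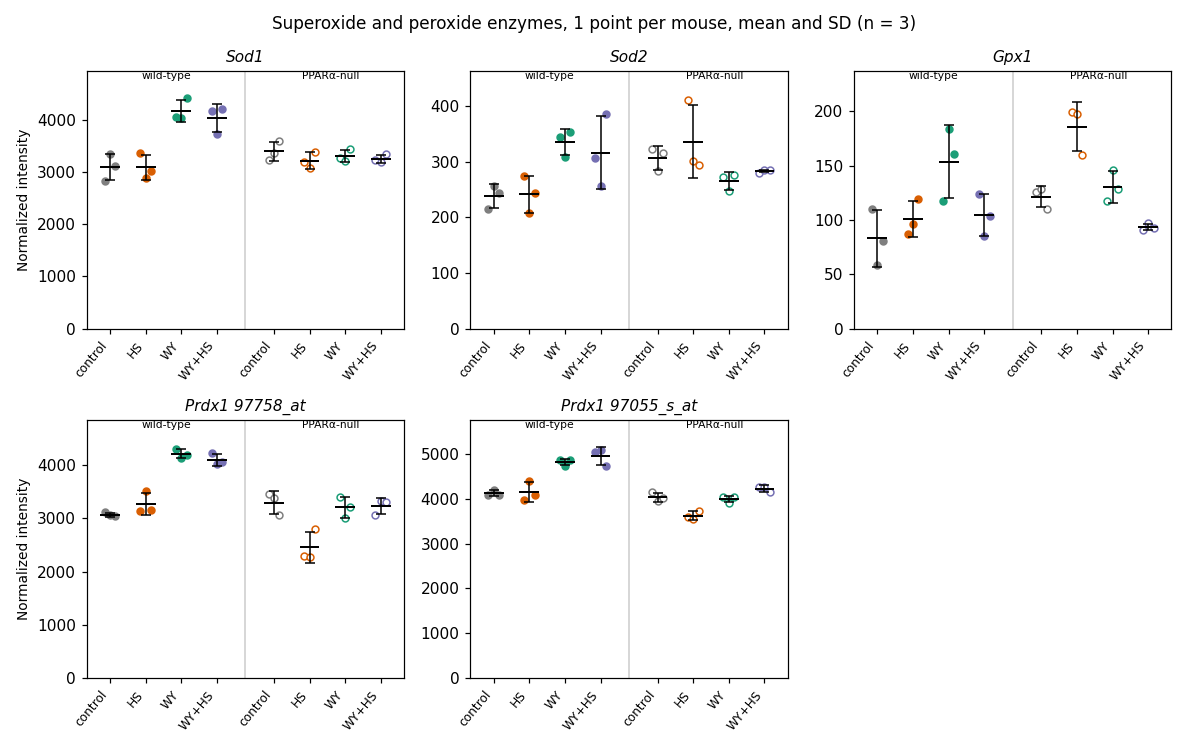
Normalized intensity of *Sod1*, *Sod2*, *Gpx1* and both *Prdx1* probe sets in each of the 24 mice, in the 4 groups of wild-type mice (filled points) and of PPARα-null mice (open points), with bars for the mean and SD of 3 mice. After this quantile normalization *Sod1* and both *Prdx1* probe sets lie higher in the WY and WY+HS groups of wild-type mice than in the control and HS groups (with a common median the WY difference of 97055_s_at is -0.14), and in null mice *Prdx1* is lowest after HS.

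PRDX1 is a cytosolic peroxiredoxin that reduces hydrogen peroxide with electrons from thioredoxin. Its 2 probe sets were 97758_at and 97055_s_at, and their annotation also lists a predicted pseudogene, Gm21399, so that a share of their signal from near-identical sequences is uncertain. For 97758_at the wild-type controls read 3113, 3057 and 3039, and the HS mice 3145, 3521 and 3167. The WY mice read 4306, 4143 and 4201, and the WY+HS mice 4237, 4034 and 4055. For 97055_s_at the wild-type range was 3977 to 4405 without WY and 4733 to 5099 with WY. Both probe sets separated all WY-fed wild-type mice from all others.

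For 97758_at the WY difference in wild-type mice was 0.46 ± 0.07 (adjusted p = 0.00025) and the WY+HS difference 0.42 ± 0.07 (adjusted p = 0.000542). For 97055_s_at these were 0.23 (adjusted p = 0.000214) and 0.27 (adjusted p = 4.28e-05). As for *Sod1*, the WY difference passed only after quantile normalization. With a common median the WY difference was 0.02 for 97758_at and -0.14 for 97055_s_at, with a trimmed mean 0.08 and -0.08, and neither passed. Without scaling the differences were larger, 0.56 (adjusted p = 0.0913) and 0.39 (adjusted p = 0.12), but did not pass either. The interactions of WY with genotype, -0.50 (adjusted p = 0.00516) and -0.24 (adjusted p = 0.00542), likewise passed only after quantile normalization. The WY+HS difference of 97758_at passed with a trimmed mean (0.28, adjusted p = 0.0194) but not with a common median (0.32, adjusted p = 0.115) or without scaling (0.09, adjusted p = 1), and that of 97055_s_at passed under none of these 3.

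In PPARα-null mice 97758_at read 3457, 3385 and 3057 in controls and 2298, 2281 and 2795 after HS, with no overlap. *Prdx1* fell after HS in null mice by both probe sets, by 0.43 ± 0.07 on the log2 scale for 97758_at (adjusted p = 0.00126) and by 0.16 ± 0.03 for 97055_s_at (adjusted p = 0.0102). The fall of 97758_at also passed with a common median and with a trimmed mean, and that of 97055_s_at did not. Without scaling neither passed (-0.45, adjusted p = 0.507, and -0.18, adjusted p = 0.977). Wild-type mice showed a difference of 0.09 after HS, and the interaction of HS with genotype was -0.52 (adjusted p = 0.0129) for 97758_at, but 0.168 and 0.0579 were the adjusted p-values of the same interaction under a common median and a trimmed mean, and 0.341 without scaling.

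Null mice given WY before HS read 3057, 3331 and 3307 for 97758_at, back in the range of the null controls and above all 3 HS mice. The difference between WY+HS and HS was 0.40 ± 0.07 (adjusted p = 0.0014) for 97758_at and 0.22 ± 0.03 (adjusted p = 0.000476) for 97055_s_at, and both passed with a common median and a trimmed mean but not without scaling (0.46, adjusted p = 0.333, and 0.27, adjusted p = 0.508). The interaction of WY with HS in null mice was 0.44 (adjusted p = 0.0302) and 0.24 (adjusted p = 0.0174), and that of 97758_at also passed with a common median (0.80) and a trimmed mean (0.55). That of 97055_s_at passed under neither, and without scaling neither probe set passed (adjusted p = 0.922 and 1).

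Markers of other cell types also differed between null HS mice and null controls, beside 7.07% of all probe sets passing and 3.18% passing upward. Besides the muscle marker sums of mice 16 and 17, 3 of 4 stellate cell markers were higher in the null HS group than in null controls. So were 2 of 5 neutrophil markers, 2 of 5 endothelial markers and 1 of 7 Kupffer cell and macrophage markers. The stellate sum was 267 to 302 in the HS mice against 102 to 138 in the controls. That of neutrophils was 311 to 373 against 173 to 255. The endothelial sum was 237 to 243 against 146 to 181, and the Kupffer cell sum 605 to 709 against 389 to 588. At the floor in all 3 HS mice were none of the stellate, 1 neutrophil, 1 endothelial and 3 Kupffer cell markers. *Acta2* and *Mpo* were also at it in mouse 18, and *Pecam1* in mice 17 and 18. The stellate and neutrophil sums were lower than in the HS group in the WY (92.1 to 177 and 172 to 199.7) and WY+HS null mice (107 to 138 and 164 to 178). The endothelial sum was as high after WY+HS (238 to 253), and the Kupffer cell sum averaged 655 after WY and 650.5 after WY+HS against 656 after HS. Their part in the results on null HS mice was not tested. In the fit without the 3 mice with high muscle markers, in which the 1 remaining null HS mouse is assumed to vary like the other groups, the *Prdx1* difference of 97758_at after HS was -0.24 (adjusted p = 0.256) and that of WY+HS against HS 0.21 (adjusted p = 0.291). Mouse 18, with a muscle sum of 146, had the highest *Prdx1* value of the 3.

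GCLC and GCLM are the catalytic and modifier subunits of glutamate-cysteine ligase, which makes the rate-limiting step of glutathione synthesis, and both are well-known NRF2 targets. *Gclc* read 433, 421 and 348 in wild-type controls, 388, 165 and 402 after HS, 399, 429 and 330.4 after WY, and 555, 432 and 528 after WY+HS. Mouse 5 of the HS group had less than any other wild-type mouse, and *Gclm* was also lowest among the HS mice there. No wild-type comparison of *Gclc* passed.

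In null controls *Gclc* read 279.9, 274 and 216, below all wild-type controls (difference -0.65, adjusted p = 0.39). It read 202, 168 and 215 after HS, 316, 311 and 317 after WY, and 410.1, 670.5 and 402 after WY+HS. All 3 WY+HS mice lay above every other null mouse, and mouse 23 stood well above the other 2. The difference between WY+HS and HS was 1.31 ± 0.27 (95% interval 0.74 to 1.88, adjusted p = 0.00455), or 2.48-fold, the largest rise among these genes in any comparison. It passed with a common median (1.45) and a trimmed mean (1.27) but not without scaling (1.23, adjusted p = 0.0953) or in the fit of the compared arrays alone (adjusted p = 0.0899), and was 1.16 (adjusted p = 0.229) without the 3 mice with high muscle markers. Against null controls the WY+HS difference of 0.91 did not pass (adjusted p = 0.487).

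*Gclm* did not pass in any comparison after quantile normalization. Its null WY+HS values, 516, 627 and 554, lay above the null HS values, 359, 383 and 474, with a difference of 0.49 (adjusted p = 0.0676). That difference passed with a common median (0.69, adjusted p = 0.0113) and with a trimmed mean (0.52, adjusted p = 0.0453). In wild-type mice the sign was the other way, with 494, 426 and 541 in controls against 341, 375 and 399 after WY+HS (difference -0.39, adjusted p = 0.178).

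TXNRD1 is the cytosolic thioredoxin reductase, which returns thioredoxin to its reduced form with NADPH. *Txnrd1* read 331, 302 and 328 in wild-type controls, 404, 309 and 383 after HS, 270.4, 236 and 199.9 after WY, and 333, 351 and 445 after WY+HS. The WY group lay below all other wild-type mice, but neither the difference to controls, -0.45 (adjusted p = 0.0702), nor that of WY+HS to WY, 0.68 (adjusted p = 0.0675), passed. Both passed with a common median, at -0.55 (adjusted p = 0.0291) and 0.80 (adjusted p = 0.0237).

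In null mice *Txnrd1* was 278, 302 and 315 in controls, 288, 277 and 232 after HS, 309.9, 332 and 313 after WY, and 349.6, 509 and 351 after WY+HS. The WY+HS group was the highest, again with mouse 23 above the other 2. Its difference to HS was 0.59 ± 0.15 (adjusted p = 0.0186), or 1.5-fold. It did not pass without mouse 18 (0.49, adjusted p = 0.0641), without mouse 23 (0.41, adjusted p = 0.0924), without scaling (0.53, adjusted p = 0.453) or without the 3 mice with high muscle markers (0.78, adjusted p = 0.108), and passed under 12 of 18 alternatives in all.

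**Figure D2:**
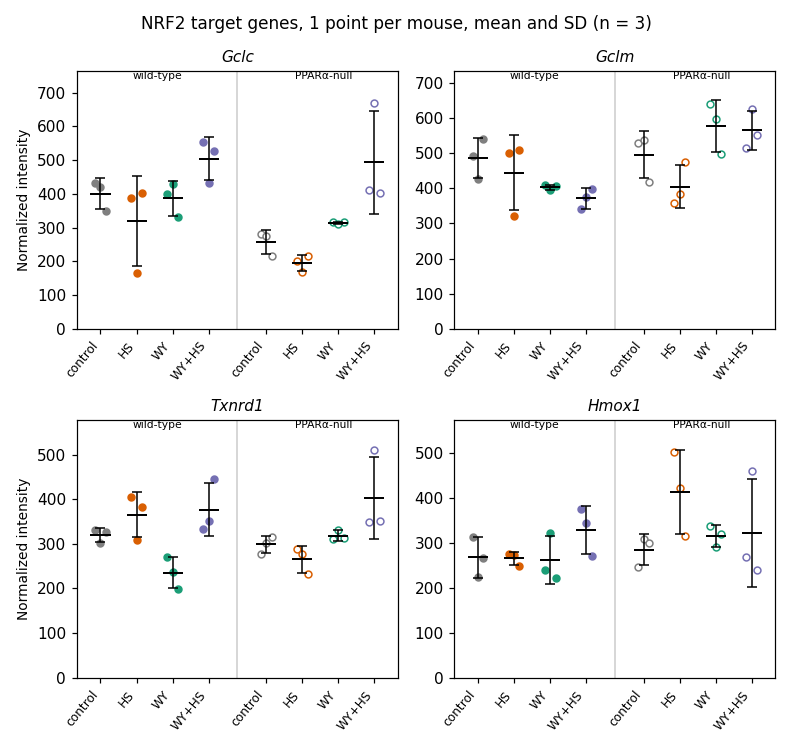
Normalized intensity of the NRF2 target genes *Gclc*, *Gclm*, *Txnrd1* and *Hmox1* in each mouse (filled points wild-type, open points PPARα-null), with bars for the mean and SD of 3 mice per group. Among null mice *Gclc* and *Txnrd1* are highest after WY+HS, with mouse 23 above the other 2, and the *Hmox1* groups of wild-type mice overlap.

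HMOX1 breaks down heme and is induced by NRF2 and by heat shock factors in many cells. *Hmox1* read 313, 224 and 267 in wild-type controls and 275, 274 and 249.9 after HS, a difference of 0.00 with a 95% interval of -0.47 to 0.47. After WY it read 241, 322 and 223, and after WY+HS 375, 344 and 271. In null controls it read 246, 309 and 299.6, and after HS 502, 422 and 316. The null HS mice all lay above the null controls, by 0.52 ± 0.22, which did not pass (adjusted p = 0.215). The 2 highest were mice 16 and 17.

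NQO1 reduces quinones with 2 electrons and is a standard readout of NRF2. Both of its probe sets were dim. 94350_f_at ranged from the floor of 15.7 to 34.95 and was at the floor in 7 mice. 94351_r_at was at the floor in 19 of 24 mice, and the 5 above it were WY mice 7 and 9 (23.8 and 18.7) and the WY+HS mice 10 to 12 (20.5, 21.5 and 20.7), all wild-type. The differences to the controls, 0.28 for WY (adjusted p = 0.0445) and 0.41 for WY+HS (adjusted p = 0.0041), passed. Since all controls were at the floor, their sizes are set by it. All wild-type HS mice and all null mice were also at it, so the SD of each of these groups was 0. The SE and p-values of this probe set therefore depend on the floor and do not measure the spread between mice. The WY difference passed under 5 of 18 alternatives and the WY+HS difference under 15. WY did not pass with a common median (adjusted p = 0.0566) or a trimmed mean (adjusted p = 0.109), nor WY+HS with a trimmed mean (adjusted p = 0.0549) or without scaling (adjusted p = 0.889). With the floor at the 5th percentile (33.9) all mice were at it and no difference was left.

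Among the 11 probe sets of these genes, none passed for HS in wild-type mice, where 0.0403% of all probe sets did. For WY in wild-type mice 6 passed, all upward, beside 10.8% of all probe sets passing and 5.59% passing upward. For WY+HS in wild-type mice 4 passed, all upward, beside 10.6% of all and 5.23% upward. Both counts hold the *Nqo1* probe set that was at the floor in all controls, and both *Prdx1* probe sets. These *Prdx1* probe sets followed each other over the mice (r = 0.93) and are counted apart in all counts given here. For WY+HS against WY none passed (0.427% of all). In null mice 2 passed for HS, both downward and both of *Prdx1* (7.07% of all, 3.89% downward), none for WY (0.00805% of all) and none for WY+HS (0.0161% of all).

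For WY+HS against HS in null mice 5 passed, 4 upward and 1 downward, beside 11.2% of all probe sets, 6.05% upward and 5.14% downward. Both *Prdx1* probe sets are among the 4. None passed between the strains without treatment (0.845% of all). For the interactions with genotype 1 passed for HS (1.62% of all), 3 for WY (5.13% of all) and 3 for WY+HS (5.34% of all). For the interaction of WY with HS none passed in wild-type mice (0.105% of all) and 2 in null mice (1.84% of all). The comparisons within a strain share their control mice, and so their counts are not independent. At an unadjusted p under 0.05, limma gave 0 of the 11 for HS (5.35% of all probe sets), 7 for WY (19.5%), 6 for WY+HS (20.1%) and 2 for adding HS to WY (8.24%), all of them in wild-type mice. In null mice it gave 4 for HS (18.0%), 0 for WY (3.45%), 2 for WY+HS (4.91%) and 6 for WY+HS against HS (21.7%). It gave 3 between the untreated strains (10.1%). Among the interactions with genotype that of HS had 2 (12.7%), that of WY 8 (14.6%) and that of WY+HS 7 (15.3%), and for WY by HS they were 3 in wild-type (6.39%) and 5 in null mice (13.3%).

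After quantile normalization the median log2 difference of the 11 probe sets was 0.28 for WY and 0.36 for WY+HS in wild-type mice. Over all probe sets it was 0 in both. The 0.28 is the difference of *Nqo1* 94351_r_at, whose size is set by the floor. In null mice the median was 0.09 for WY, 0.07 for WY+HS and -0.08 for HS, again against 0. Medians under the other scalings are not given here. Scaling set much of the count for WY in wild-type mice: 2 of 11 passed with a common median (*Gpx1* upward and *Txnrd1* downward, beside 4.06% of all upward and 5.43% downward), 2 with a trimmed mean (*Sod2* and *Gpx1*, beside 5.42% upward) and 2 without scaling (*Gpx1* and *Nqo1*, beside 8.77% upward).

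**Figure D3:**
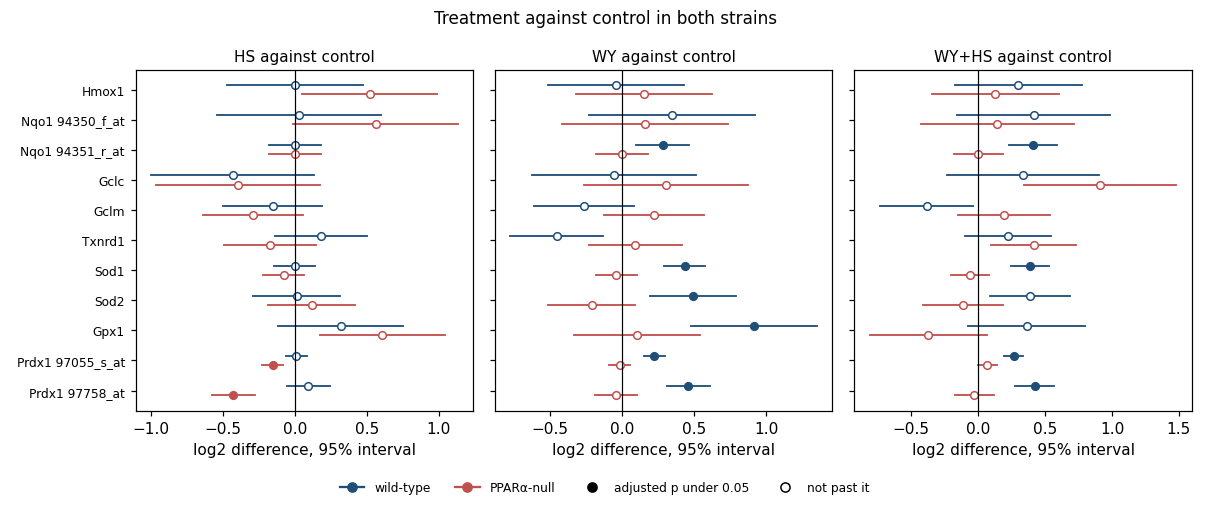
Log2 difference from the control mice of the same strain, with 95% interval, for each of the 11 probe sets after HS, WY and WY+HS (n = 3 mice per group, quantile normalized). Filled points have an adjusted p under 0.05, and they lie to the right of 0 for WY and WY+HS in wild-type mice and to the left for *Prdx1* after HS in null mice.

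**Figure D4:**
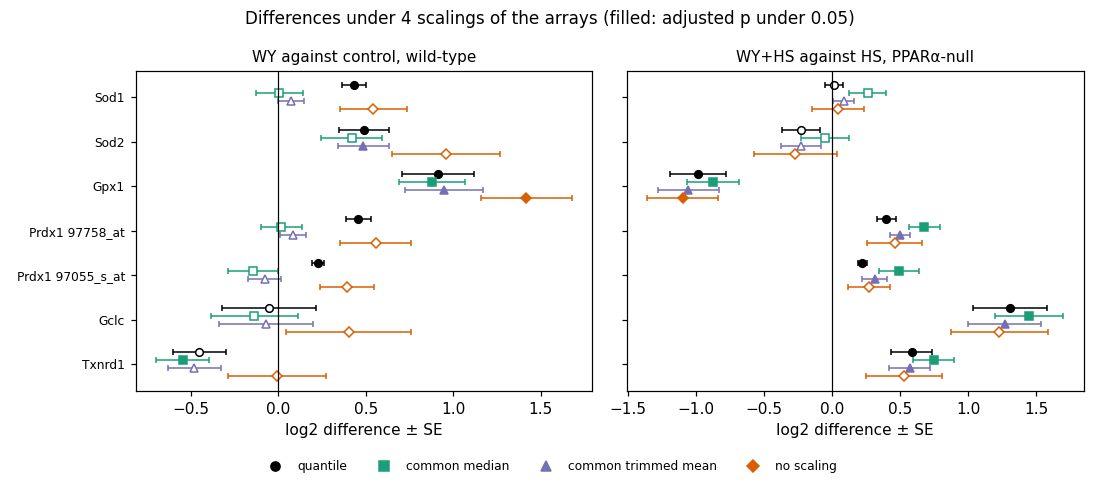
Log2 difference and SE of 7 probe sets for WY against control in wild-type mice and for the same step from HS to WY+HS in PPARα-null mice, under each of the 4 scalings of the arrays. In the first comparison *Sod1* and *Prdx1* move from a clear rise to near 0 or below with a common median or trimmed mean but not without scaling, whereas *Gpx1* keeps its rise, and in the second *Gclc*, *Txnrd1* and *Prdx1* stay to the right of 0 and *Gpx1* to the left under all 4.

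Across the 24 mice, the 2 *Prdx1* probe sets followed each other (Pearson r = 0.93, and 0.56 after taking out the group means). *Sod1* correlated with both *Prdx1* probe sets at 0.71 over all mice, but at -0.25 and -0.05 within groups. These are descriptions over mice that share groups and arrays. The 5 probe sets most like 97055_s_at of *Prdx1* included those of *Acaa1b*, a peroxisomal thiolase (r = 0.96), and *Gsr*, glutathione reductase (r = 0.95). *Gsr* was also among the 5 most like 97758_at (r = 0.93). *Sod1* was most like *Acadm*, a mitochondrial fatty acid dehydrogenase (r = 0.92), *Gclc* was most like *Creg1* (r = 0.88), *Txnrd1* most like *Mbd1* (r = 0.77) and *Sod2* most like *Dctn2* (r = 0.80).

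A wider list of 52 genes of NRF2 control, glutathione, thioredoxin, peroxide removal, NADPH supply and other NRF2 targets had 45 measured genes. For WY in wild-type mice 11 of these passed upward and 3 downward, beside 5.59% of all probe sets upward and 5.19% downward, with a median log2 difference of 0.27 against 0 over all probe sets. With a common median the counts were 6 and 3 (4.06% and 5.43% of all), with a trimmed mean 9 and 3 (5.42% and 5.34% of all) and without scaling 13 and 1 (8.77% and 0.974% of all). None of the 45 passed for HS in wild-type mice or for WY in null mice.

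*Gsr* encodes glutathione reductase, which regenerates reduced glutathione with NADPH. It read 177, 211 and 185 in wild-type controls, 363, 336 and 317 after WY, and 355, 363 and 406 after WY+HS. The values were 201, 189.7 and 180.4 in null controls, 117, 118 and 119 after HS, and 214, 225 and 229.7 after WY+HS. Wild-type mice with WY stood above all others, and the null HS mice below all others.

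*Gsr* rose by 0.83 (adjusted p = 1.37e-06) with WY in wild-type mice and passed under all 4 scalings. After HS in null mice it fell by 0.68 on the log2 scale (adjusted p = 5.39e-05), and WY+HS exceeded HS by 0.91 (adjusted p = 1.6e-06). Both passed with a common median and a trimmed mean, but not without scaling. Without the 3 mice with high muscle markers, when mouse 18 alone stands for the null HS group, the differences were -0.67 and 0.90. The interaction of HS with genotype was -0.79 (adjusted p = 0.00107) and that of WY with genotype -0.82 (adjusted p = 0.000172). Without scaling these 2 interactions did not pass either (adjusted p = 0.276 and 0.147).

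Of the 7 genes of NADPH supply, 5 rose with WY in wild-type mice and none fell, beside 5.59% of all probe sets upward and 5.19% downward. *Me1*, cytosolic malic enzyme, read 135, 176 and 159.5 in controls and 1864, 1420.2 and 1742 after WY, a rise of 3.42 on the log2 scale (adjusted p = 1.02e-06). *Idh1*, cytosolic isocitrate dehydrogenase, rose by 0.86 (adjusted p = 0.000326), *Nnt*, the mitochondrial transhydrogenase, by 0.70 (adjusted p = 0.00339), and *Taldo1* of the pentose phosphate pathway by 0.86 (adjusted p = 0.0329). *Pgd*, 6-phosphogluconate dehydrogenase, was at the floor in all 3 controls and read 109, 51.1 and 96.9 after WY (adjusted p = 0.000966). The interaction of WY with genotype passed for *Me1* (-3.64), *Pgd* (-2.12) and *Idh1* (-0.77), each a smaller difference in null than in wild-type mice, with the size for *Pgd* set by the floor. Under a common median *Taldo1* (adjusted p = 0.0826) and the *Pgd* interaction (adjusted p = 0.0593) did not pass. The *Pgd* interaction also failed with a trimmed mean (adjusted p = 0.063), and that of *Idh1* without scaling (adjusted p = 0.238).

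Of the 9 glutathione genes, 3 passed upward and 2 downward for WY in wild-type mice, beside 5.59% of all probe sets upward and 5.19% downward. Besides *Gsr*, these were *Gpx4*, the phospholipid hydroperoxide peroxidase (0.55, adjusted p = 0.0285), and *Mgst1*, a microsomal transferase (0.45, adjusted p = 0.0124), of which neither passed with a common median. *Mgst1* also failed with a trimmed mean and without scaling. The transferases *Gstp1* (-0.77, adjusted p = 0.000546) and *Gsta4* (-2.01, adjusted p = 0.00533) were lower. *Gsta4* was at the floor in 2 of 3 WY mice, which sets its size, and did not pass without scaling (adjusted p = 0.0507). *Gstp1* read 7111, 6929 and 6929 in controls and 4011, 4201 and 4115 after WY, and 3949, 3649 and 4916 after WY+HS. Among 8 thioredoxin and peroxiredoxin genes *Txn1* (0.60, adjusted p = 0.00284) and *Prdx2* (0.27, adjusted p = 0.025) passed upward, and *Srxn1*, sulfiredoxin, downward (-0.80, adjusted p = 0.021). The same shares of all probe sets stand beside them. With a common median neither rise passed, with a trimmed mean that of *Txn1* failed (adjusted p = 0.163), and without scaling *Srxn1* failed (adjusted p = 0.616). *Cat*, catalase, did not pass in any comparison after quantile normalization, but with a common median it passed downward for HS in null mice (-0.49) and upward from HS to WY+HS (0.70), the latter also with a trimmed mean (0.52).

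The fatty acid carrier *Cd36*, listed with other NRF2 targets and also a known PPARα target, was at the floor in all wild-type controls and read 83.4, 101 and 102 after WY (2.60, adjusted p = 1.89e-09, its size set by the floor).

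After WY+HS in wild-type mice 9 of the 45 passed upward and 4 downward, beside 5.23% and 5.38% of all probe sets. The 9 upward were *Gsr* (0.97), *Me1* (3.28), *Pgd*, *Idh1* (0.66), *Cd36*, *Txn1* (0.46), *Glrx*, glutaredoxin (0.41, adjusted p = 0.0401), *Sqstm1*, the autophagy receptor that also binds KEAP1 (0.71, adjusted p = 0.0296), and *Cbr1*, a carbonyl reductase (2.59, adjusted p = 0.00168). The 4 downward were *Gstp1* (-0.76), *Gsta4* (-2.13), *Srxn1* (-1.20) and *Prdx4*, the peroxiredoxin of the endoplasmic reticulum (-0.63, adjusted p = 0.000682). For *Pgd* (3.29) and *Cd36* (2.36), at the floor in all 3 controls, and for *Gsta4*, at the floor in 2 of 3 WY+HS mice, the size is set by the floor. Without scaling *Gsr* (adjusted p = 0.0886), *Idh1* (0.433), *Glrx* (0.924) and *Sqstm1* (0.352) did not pass, and *Txn1* passed under no other scaling.

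After HS in null mice *Gsr* and *Nnt* (-0.82, adjusted p = 0.00226) passed, both downward (3.89% of all probe sets), and 7 passed downward with a common median (4.72% of all). *Nnt* did not pass without scaling (adjusted p = 0.282). *Nnt* read 199, 326 and 284 in null controls and 139, 141 and 172 after HS. For WY+HS against HS in null mice 7 passed, all upward (6.05% of all): *Gsr*, *Nnt* (0.84, adjusted p = 0.00115), *Idh2* (0.82, adjusted p = 0.00499), *Ccs*, the copper chaperone of SOD1 (1.00, adjusted p = 0.0236), *Fth1*, ferritin heavy chain (0.48, adjusted p = 0.0179), *Cul3* (0.49, adjusted p = 0.0397) and *Aox1*, aldehyde oxidase (1.76, adjusted p = 0.0318). None of the 45 passed here without scaling, and *Cul3* also failed with a trimmed mean (adjusted p = 0.0819). Without the 3 mice with high muscle markers, mouse 18 alone stands for the null HS group. The differences for HS in null mice were then -0.67 for *Gsr* and -0.62 for *Nnt*, and those for WY+HS against HS 0.90 and 0.64.

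Of the 8 genes that control NRF2, none passed for WY, HS or WY+HS against control in either strain. *Nfe2l2* read 114, 128 and 131 in wild-type controls and 195, 168 and 151 after WY, but passed in no comparison after quantile normalization (without scaling the difference of WY+HS to WY was -1.16, adjusted p = 0.0333). *Keap1* was at the floor in all but 1 of the 24 mice. *Nfe2l1*, which encodes a relative of NRF2, was the single gene of the 45 that passed between the untreated strains. Its values were 409, 417 and 426 in wild-type controls and 231, 177 and 199 in null controls, a difference of -1.05 (adjusted p = 0.000922) that passed under all 4 scalings.

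**Figure D5:**
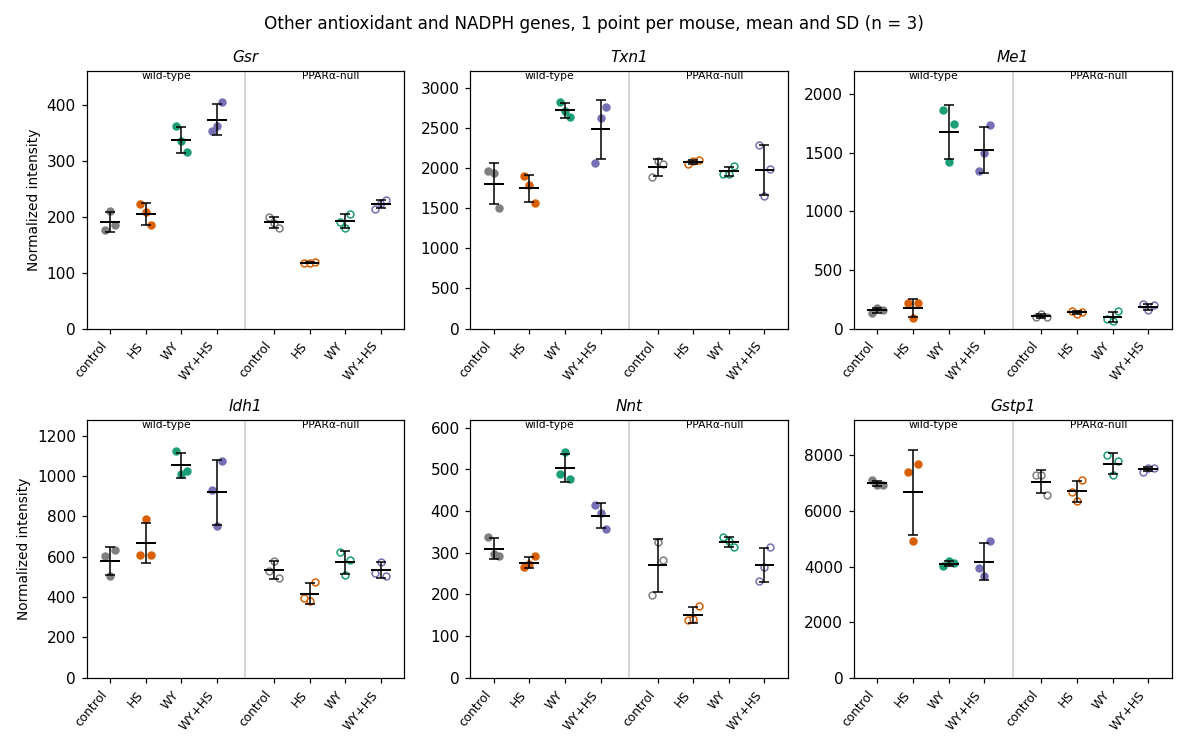
Normalized intensity of *Gsr*, *Txn1*, *Me1*, *Idh1*, *Nnt* and *Gstp1* in each mouse (filled points wild-type, open points PPARα-null), with bars for the mean and SD of 3 mice per group. *Me1* and *Gsr* are higher and *Gstp1* lower in wild-type mice given WY with or without HS, and *Gsr* and *Nnt* are lowest in null mice after HS.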

How the data were processed

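The authors hybridized biotin-labelled liver RNA, acquired images in GeneChip Operating Software 1.4 and processed these in Rosetta Resolver 7.1. The deposited values are linear probe set intensities. Since 24.1% of them were 0 or negative, a background or mismatch signal must have been taken off, but the sources used here do not name the summary method.

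Intensities of the 24 arrays were quantile normalized, raised to a floor of 15.7 (the size of the 10th percentile) and taken to log2. At the floor were 42.9% of values. limma 3.58.1 (R 4.3.3) was fitted with 1 mean for each of the 8 groups (16 residual and 0.39 prior degrees of freedom) in 14 comparisons, with Benjamini-Hochberg adjustment over 12422 probe sets at 0.05. The calculation was first tested on simulated data. Probe sets carried 1 symbol (10833), several (396) or none (1193). A probe set of 2 genes was kept where one was a listed gene. For the wider lists the brightest probe set with 1 symbol was used. Every listed gene, and each wider-list gene that passed, could be named, with the 5 probe sets of highest Pearson r. Members and lists were chosen with earlier results of these data known. Alternatives were other scalings, floors (5th and 20th percentile), an asinh scale, a filter, array weights, trend and robust moderation, fits of only the arrays compared, the methods' test (analysis of variance across groups followed by Scheffe's test) and leaving out each mouse. The trimmed mean (2% at each end) and the fit without mice with muscle markers (sum above 500) were chosen after seeing the data.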

Additional observations from a re-analysis of the deposited data

Results flagged for a closer look

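Differences between the strains, or between WY with and without HS, passed the interaction test for *Sod1* and *Prdx1*. For *Sod1* the response to WY was -0.47 on the log2 scale in null relative to wild-type mice (adjusted p = 0.0058) and the response to WY+HS -0.45 (adjusted p = 0.00909). For *Prdx1* 97055_s_at these were -0.24 (adjusted p = 0.00542) and -0.20 (adjusted p = 0.0209), and for 97758_at -0.50 (adjusted p = 0.00516) and -0.45 (adjusted p = 0.0114). None of these 6 passed with a common median, a trimmed mean or no scaling.

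The response of *Prdx1* 97758_at to HS was -0.52 in null relative to wild-type mice (adjusted p = 0.0129). In null mice WY and HS interacted by 0.44 for 97758_at (adjusted p = 0.0302) and by 0.24 for 97055_s_at (adjusted p = 0.0174). None of these 3 passed without the 3 mice with high muscle markers. The part of tissue makeup in them was not tested.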

How the results depend on the processing

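Of 26 results that passed for single probe sets, 522 alternative values were computed. In 380 the direction and the side of the threshold stayed, in 137 the difference no longer passed, and in 5 the sign turned. These 5 were *Prdx1* 97055_s_at for WY in wild-type mice (-0.144 with a common median, -0.0777 with a trimmed mean), for WY by genotype (0.0249 and 0.0315) and for WY+HS by genotype (0.0746 without scaling). The cause was not tested.

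Counts of the 11 probe sets that changed by over 1.5 times are given here. Beside those for WY in wild-type mice, 4.06% of all probe sets passed upward and 5.43% downward with a common median. These shares were 5.42% and 5.34% with a trimmed mean and 8.77% and 0.974% without scaling. For HS in null mice 4.72% passed downward with a common median. The other counts in this section stand without such a share, so a change in them cannot be told from a change over the whole array. With a common median, 2 passed for WY and 1 for WY+HS in wild-type mice, 1 for WY+HS against WY, 1 for HS in null mice, 0 for each interaction with genotype and 1 for WY by HS in null mice. With a trimmed mean, these were 2 for WY, 2 for WY+HS, 1 for HS in null mice, 0 for each interaction with genotype and 1 for WY by HS in null mice. Without scaling, they were 2 for WY, 0 for WY+HS, 1 for WY+HS against WY, 0 for HS in null mice, 1 for WY+HS against HS, 0 for each interaction with genotype, 3 for WY by HS in wild-type and 0 in null mice. On the asinh scale 1 passed for HS in null mice and 0 for each interaction with genotype and for WY by HS in null mice. With the filter at the 30th percentile 1 passed for HS in null mice and 0 for HS by genotype, WY+HS by genotype and WY by HS in null mice. Array weights and the methods' test gave 1 for WY+HS against WY, and trend and robust moderation 1 for WY by HS in null mice. With only the arrays compared, 3 passed for WY in wild-type mice, 0 for HS in null mice, 2 for WY+HS against HS and 0 for HS by genotype. Without the 3 mice with muscle markers, 0 passed for HS in null mice, for WY+HS against HS, for HS by genotype and for WY by HS in null mice, with fewer mice in the fit.

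Leaving out each mouse gave 4 to 6 for WY, 4 to 5 for WY+HS and 0 to 1 for WY+HS against WY, all in wild-type mice, 1 to 2 for HS and 5 in each case for WY+HS against HS in null mice. For the interactions it gave 1 to 2 (HS by genotype), 3 to 4 (WY by genotype), 2 to 3 (WY+HS by genotype) and 0 to 3 (WY by HS in null mice). It gave 0 for HS in wild-type mice, for WY and WY+HS in null mice, between the untreated strains and for WY by HS in wild-type mice. No paired analysis was possible because the mouse numbers are unique to 1 array and link none of the groups. With 3 mice per group the precision is limited, and *Nqo1* lay too near the floor for the size or the p-value of a difference to be read.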
